A study of Mus musculus with 9 samples.

Results

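The Tcl1 family of the mouse was followed through 9 libraries of matured oocytes. Its members, Tcl1, Tcl1b1, Tcl1b2, Tcl1b3, Tcl1b4 and Tcl1b5, were taken by symbol, and all 6 were among the 22526 genes of the deposited table. The donors were ICR mice, which are outbred, and the oocytes were at metaphase II, where the ovulated egg waits for fertilisation. Of the libraries, 3 came from an NMN group, which received nicotinamide mononucleotide, a precursor of the coenzyme NAD, 3 from an aged group and 3 from a young group. The labels give no age in weeks, no dose or route of NMN, no age for the NMN group, and no number of oocytes or animals behind a library, so the spread behind each p-value is that between libraries and could be technical. In such bulk values, a change in the number of cells and a change in RNA per cell cannot be told apart.

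TCL1 proteins are small barrel-shaped proteins that bind the pleckstrin homology domain of AKT kinases and raise their activity, and human TCL1A was found through chromosome rearrangements in T-cell leukaemia. In the mouse, Tcl1 mRNA is stored in the growing oocyte, and embryos of mothers that lack Tcl1 cleave poorly. The Tcl1b genes are a set of tandem copies on chromosome 12 that the mouse carries next to Tcl1, and their transcripts are known mainly from oocytes and early embryos. Oocytes at metaphase II make almost no new RNA, and their mRNA is a maternal store.

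In the GENCODE M21 annotation the genes lie in the order Tcl1b2, Tcl1b1, Tcl1b5, Tcl1b3, Tcl1b4 on one strand, followed by Tcl1 on the other. The promoter windows of all 6 members, from 250 bases before to 50 after the annotated start, were present in the RefSeq table (build GRCm38.p6). Between the 10 pairs of Tcl1b genes, local alignments of 204 to 287 bases of these windows were 91.3 to 98.6% identical, whereas Tcl1 aligned with a Tcl1b window over only 18 to 28 bases. The windows of Tcl1b5 and Tcl1b3 are shown because these were the Tcl1b genes with the largest and the only negative log2 change in aged oocytes, and that of Tcl1 because it differs from them. Capitals in the Tcl1b windows mark the longest run found in all 5 of them, which is 25 bases long, and in the Tcl1 window they mark the E-box CACCTG.
Tcl1b5 (chr12:105176094-105176393, plus strand): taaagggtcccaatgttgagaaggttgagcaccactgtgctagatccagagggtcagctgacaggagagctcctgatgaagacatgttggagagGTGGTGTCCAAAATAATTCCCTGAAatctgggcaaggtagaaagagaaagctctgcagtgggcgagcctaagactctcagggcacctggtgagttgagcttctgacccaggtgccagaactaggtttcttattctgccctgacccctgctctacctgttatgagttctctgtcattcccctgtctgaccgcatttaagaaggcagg
Tcl1b3 (chr12:105190795-105191094, plus strand): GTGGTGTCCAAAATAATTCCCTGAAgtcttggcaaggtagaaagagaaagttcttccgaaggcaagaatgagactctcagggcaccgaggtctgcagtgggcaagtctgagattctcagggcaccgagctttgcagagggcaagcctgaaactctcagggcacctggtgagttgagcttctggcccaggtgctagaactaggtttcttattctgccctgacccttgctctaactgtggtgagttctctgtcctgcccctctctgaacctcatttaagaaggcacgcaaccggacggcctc
Tcl1 (chr12:105222688-105222987, minus strand): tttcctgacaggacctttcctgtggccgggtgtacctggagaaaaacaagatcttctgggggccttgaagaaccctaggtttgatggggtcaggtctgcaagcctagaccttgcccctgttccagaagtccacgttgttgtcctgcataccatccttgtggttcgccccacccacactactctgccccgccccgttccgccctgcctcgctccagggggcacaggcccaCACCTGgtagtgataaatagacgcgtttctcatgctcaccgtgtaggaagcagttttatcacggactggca
The run began 156 bases before the start of Tcl1b5 (-156) and at the first base of the Tcl1b3 window (-250), and among the 32851 promoters held by RefSeq it was found in the 5 Tcl1b promoters alone. Since the Tcl1b3 window opens with the run, bases before it could not be compared, and 25 bases may not be its full extent. The E-box CAGGTG, read on both strands, was in the windows of all 6 members and in 20.2% of all promoters. TATAAA was in none of the 6 and in 13.6% of all promoters, TTTAAG was in the windows of Tcl1b1, Tcl1b2, Tcl1b3 and Tcl1b5 and in 13.5% of all, and TAATTG, an element of the oocyte homeobox factor NOBOX, was in none and in 8% of all. These motifs were chosen with the sequences in view, and a match describes letters only.

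The transcripts of the Tcl1b genes are also alike, which bears on how reads are divided among them. Their longest coding transcripts were 85.5 to 93.3% identical in 10 pairs. Of the windows of 100 bases along each transcript, 9.23% in Tcl1b2, 9.09% in Tcl1b3, 1.46% in Tcl1b5, 0.106% in Tcl1b1 and 0% in Tcl1b4 and Tcl1 occurred also in another member. With windows of 50 bases, the shares were 34.1% for Tcl1b3, 31.4% for Tcl1b2, 20.8% for Tcl1b5, 13% for Tcl1b1, 2.82% for Tcl1b4 and 0% for Tcl1. No window was found in a gene outside the family. Reads from the shared windows of Tcl1b genes can only be divided by the counting program, so the values of Tcl1b2, Tcl1b3 and Tcl1b5, which share most, are less certain than those of Tcl1 and Tcl1b4. The read length is not given in the sources used here.

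The family was among the most abundant mRNA of these oocytes. Levels are FPKM as deposited, read fragments scaled to transcript length and library size, so members can be compared with each other. Together the 6 genes held 2.66, 2.05 and 2.07% of all FPKM in NMN replicates 1 to 3. They held 2.36, 3.85 and 2.03% in aged and 2.36, 1.86 and 1.73% in young replicates 1 to 3. Among 22526 genes, Tcl1b1 took place 4 to 14 across the 9 libraries, Tcl1 place 15 to 30, Tcl1b2 place 19 to 65, Tcl1b3 place 31 to 61, Tcl1b4 place 43 to 170 and Tcl1b5 place 40 to 407. Mtcp1, a relative of the family on the X chromosome, was above 0 in 4 of 9 libraries, at 0.0270 FPKM at most, and was not tested. Depth, estimated from the low values, was 16290000 to 19250000 reads per library. At that depth the values of Tcl1b5 rested on about 2250 to 19020 reads and those of Tcl1b3 on about 10890 to 21900, far above the 0.156 to 0.184 FPKM that 3 reads on a transcript of 1 kb would give.

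The libraries carried oocyte RNA, and 1 of them stood apart. The 13 listed oocyte markers, which include zona pellucida genes and growth factors such as Gdf9, were above 0 in every library, and their sum was 12475 to 19949.8 FPKM. Of 13 measured genes that mark cumulus and granulosa cells, the somatic cells around an oocyte, 13 were above 0 in aged replicate 2, with a sum of 24.8 FPKM, against 4 to 6 markers and sums of 4.97 to 8.34 FPKM in the other 8 libraries. Aged replicate 2 held 6.37 FPKM of Ptx3, 3.17 of Inha, 2.31 of Fst, 1.08 of Tnfaip6, 0.0943 of Foxl2 and 0.0433 of Inhbb, all of which the other 8 libraries list at 0. Inhba, at 3.97 FPKM against at most 0.123 in the others, and Nr5a2, at 3.10 against at most 1.83 FPKM, were also highest in aged replicate 2. Of the measured markers, Cyp19a1, the aromatase gene of granulosa cells, alone was not. At 3.03 FPKM it was lowest in aged replicate 2, though close to NMN replicate 1 at 3.05 and aged replicate 1 at 3.26 FPKM. Its highest values were those of the young libraries, 5.27 to 6.21 FPKM. Markers of the two-cell embryo summed to 210.1 FPKM in aged replicate 2 and to 36.4 to 109.9 FPKM in the others. Of the sum in aged replicate 2, Tcstv1 made up 158.4 and Tcstv3 49.998 FPKM, and Eif1a was at 1.43 FPKM, against at most 0.399 in the others. The remaining genes, among them Zscan4d at 0.0541, Zscan4c at 0.0270 FPKM and Zscan4f at 0, were too low there for their exact values to count. They lay below the 0.184 FPKM that 3 reads on a transcript of 1 kb would give in this library. Unlike Tcstv1, Tcstv3 and Eif1a, Zscan4d was lowest in aged replicate 2. It was at 0.449 FPKM in aged replicate 3 and at 0.553 and 0.607 FPKM in young replicates 1 and 2. The part of these transcripts in the values of the Tcl1 family was not tested, and results for the aged group are given with and without aged replicate 2.

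**Figure D1:**
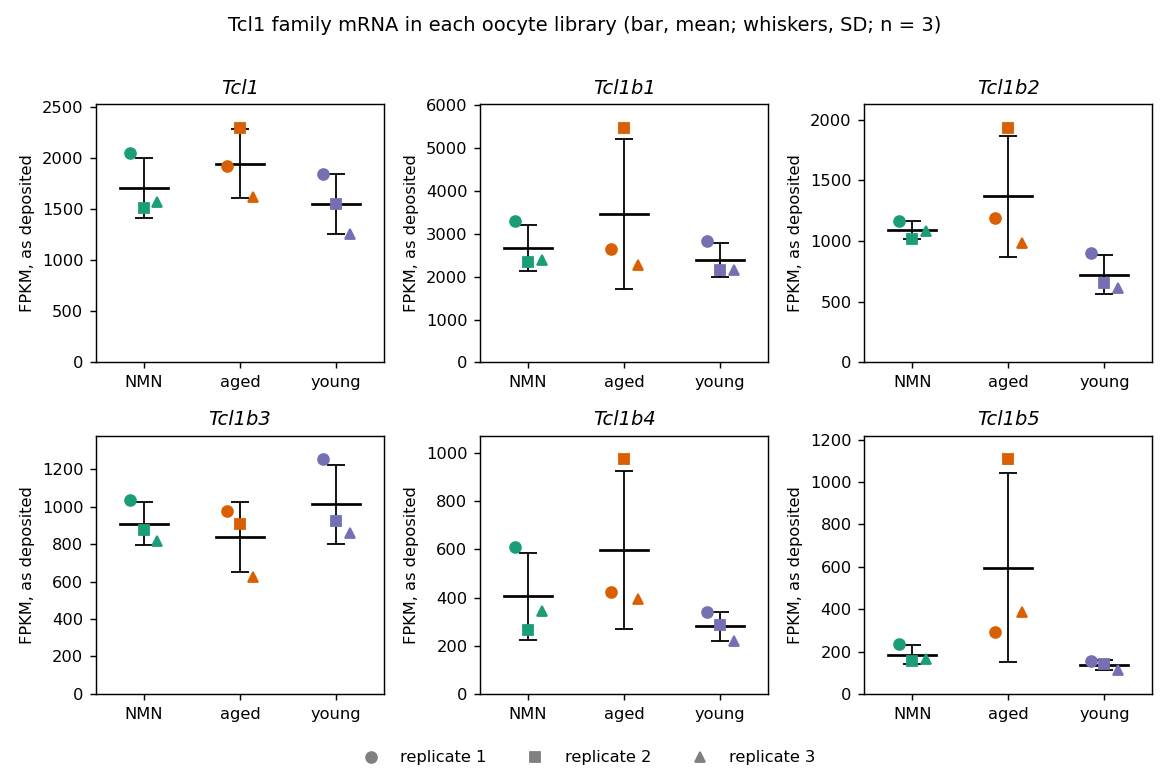
FPKM as deposited (vertical axes, from 0) of the 6 Tcl1 family genes in each library of the NMN, aged and young groups, with the group mean (bar) and SD (whiskers, n = 3). Aged replicate 2 lies above the other 8 libraries in every panel but that of Tcl1b3, and the young libraries lie lowest for Tcl1b2.

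The order of the members was the same at the top in every library and differed between groups below it. Tcl1b1 exceeded Tcl1 in 9 of 9 libraries, by 1.38 to 2.38 times. Next came Tcl1b2 and Tcl1b3, which changed places: Tcl1b2 exceeded Tcl1b3 in 3 of 3 NMN and 3 of 3 aged libraries, but in 0 of 3 young libraries. The ratio of Tcl1b2 to Tcl1b3 was 1.12, 1.16 and 1.33 in NMN replicates 1 to 3, then 1.22, 2.12 and 1.57 in aged replicates, against 0.722, 0.707 and 0.714 in young replicates. The young ratios lay within a narrow band below 1, and no library of another group reached it. Among single genes, 23.8% did not overlap in aged against young and 16.7% in NMN against young oocytes. For ratios of gene pairs no such share was computed. Tcl1b2 and Tcl1b3 also share the most sequence with other members (31.4 and 34.1% of windows of 50 bases), so the division of reads among them bears on this ratio. Tcl1b4 exceeded Tcl1b5 in 8 of 9 libraries, and the exception was aged replicate 2, where Tcl1b5 had 1106 FPKM, Tcl1b4 974 FPKM and Tcl1b3 911 FPKM.

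Set against young oocytes, aged oocytes held more Tcl1b5 mRNA, while the 5 other members did not pass the test. Tcl1b5 rose in the test, with a log2 change of 1.86 ± 0.39 SE, and Tcl1b2 and Tcl1b4 were higher in all 3 aged than in all 3 young libraries without passing it. Tcl1 and Tcl1b1 overlapped between the groups, and Tcl1b3 had the single negative log2 change. Tests used limma across 9179 genes on log2(FPKM + 1) with p-values adjusted over all of them, and a gene was called at an adjusted p under 0.05. In this comparison 2.12% of all genes were called, 1.31% as higher and 0.817% as lower, and of the 6 members 1 was called, as higher.

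Tcl1b5 (ENSMUSG00000000701) was at 291, 1106 and 386 FPKM in aged replicates 1 to 3, against 157, 143 and 111 FPKM in young replicates 1 to 3. Every aged library lay above every young one, and aged replicate 2 lay far above the other 2 aged libraries. The means were 594 ± 446 FPKM in aged and 137 ± 23.8 FPKM in young oocytes (SD, n = 3 each; limma adjusted p = 0.0449). Without aged replicate 2 the log2 change was 1.33 ± 0.22 and the adjusted p 0.0209, so the call did not rest on that library, while its size fell. The call held without aged replicate 1 or 2 and was lost without any 1 of the other 7 libraries, with adjusted p up to 0.177 without young replicate 3. It was also lost with values as deposited (limma adjusted p = 0.0548), with a pseudocount of 0.1 (0.0504), with no low-value filter (0.152) and with the replicate number as a block (0.0738).

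Tcl1b2 (ENSMUSG00000060863) was at 1192, 1934 and 983 FPKM in aged replicates 1 to 3, against 906, 654 and 614 FPKM in young replicates 1 to 3. The groups did not overlap, and aged replicate 3 came closest to the young libraries. The log2 change was 0.86 ± 0.23 SE (limma adjusted p = 0.0941), and 0.63 ± 0.19 without aged replicate 2 (adjusted p = 0.126). Tcl1b4 (ENSMUSG00000079007) was at 423, 974 and 396 FPKM in aged replicates, against 340.3, 285 and 220 FPKM in young replicates. Its groups did not overlap either, and again aged replicate 2 stood far above the rest. Its log2 change of 0.96 ± 0.36 (limma adjusted p = 0.201) was 0.59 ± 0.31 without that library. With library quality weights, which gave aged replicate 2 a weight of 0.206, Tcl1b2 was called as well (log2 change 0.73, limma adjusted p = 0.0191).

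Tcl1 (ENSMUSG00000041359), the member with the best known role, was at 1917, 2295 and 1622 FPKM in aged replicates 1 to 3, against 1842, 1547 and 1252 FPKM in young replicates 1 to 3. The groups overlapped through aged replicate 3 and young replicate 1 (log2 change 0.32 ± 0.20 SE, limma adjusted p = 0.437, and 0.23 without aged replicate 2). Tcl1b1 (ENSMUSG00000066359) was at 2642, 5466 and 2262 FPKM in aged replicates, against 2835, 2152 and 2157 FPKM in young replicates. Only aged replicate 2 of the aged group lay above all young libraries, and the log2 change of 0.42 ± 0.28 (limma adjusted p = 0.474) was 0.08 ± 0.19 without it. Tcl1b3 (ENSMUSG00000068940) was at 975, 911 and 626 FPKM in aged replicates, against 1253, 926 and 860.2 FPKM in young replicates. Here 1 of 3 aged libraries lay below the young ones, and the log2 change was -0.30 ± 0.22 (limma adjusted p = 0.505), and -0.33 without aged replicate 2.

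Over the 6 members the median log2 change in aged against young oocytes was 0.64, beside -0.01 over all tested genes and 0.48 over the 13 oocyte markers, of which 1 was called as higher and 0 as lower. The groups did not overlap for 3 of 6 members, each higher in aged oocytes, and for 23.8% of all genes, 12.6% higher and 11.3% lower. An unadjusted p under 0.05 was found for 3 of 6 members, Tcl1b5, Tcl1b2 and Tcl1b4, for 5 of the 13 oocyte markers and for 18.1% of all genes. Without aged replicate 2 the family median was 0.41. Leaving out a library cannot make groups overlap that did not, so this setting is no further test of the overlap of Tcl1b2, Tcl1b4 and Tcl1b5.

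**Figure D2:**
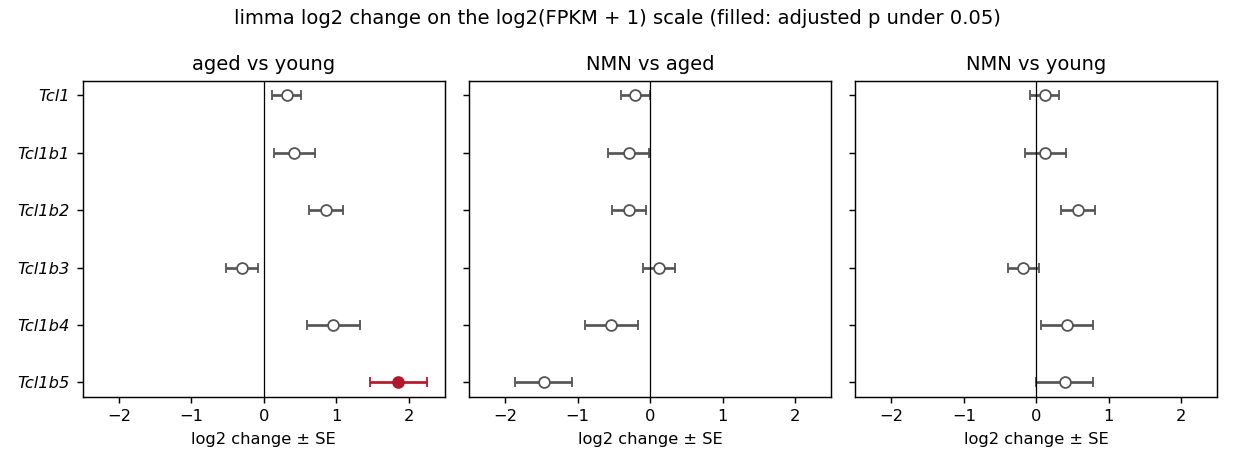
Log2 change with its standard error (horizontal axes) of each Tcl1 family gene in 3 comparisons, from limma on the log2(FPKM + 1) scale, with calls filled. The call is Tcl1b5 in aged against young oocytes, at 1.86, and Tcl1b5 in NMN against aged oocytes lies at -1.47 without a call.

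With NMN set against the aged group, no member was called. Tcl1b5 was at 237, 157 and 163 FPKM in NMN replicates 1 to 3, against 291, 1106 and 386 FPKM in aged replicates 1 to 3. All NMN libraries lay below all aged ones, and the nearest pair was NMN replicate 1 and aged replicate 1. The means were 185 ± 44.4 FPKM in NMN and 594 ± 446 FPKM in aged oocytes (SD, n = 3 each), and the log2 change was -1.47 ± 0.39 SE (limma adjusted p = 0.199). Without aged replicate 2 it was -0.94 (limma adjusted p = 0.152), and with library quality weights -1.16, then called (adjusted p = 0.0389). Of all tested genes 0.218% were called, 0.12% as higher and 0.098% as lower, and of the 6 members 0 by limma. An unadjusted p under 0.05 was found for 1 of 6 members and for 11.1% of all genes. The groups did not overlap for 1 of 6 members, which was lower in NMN oocytes, and for 15.9% of all genes, 8.61% higher and 7.27% lower.

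The other members overlapped between NMN and aged oocytes. Tcl1b4 was at 610.3, 264 and 343 FPKM in NMN replicates 1 to 3 (log2 change -0.54 ± 0.36 SE, limma adjusted p = 0.612). Of these, 2 lay below all aged libraries, and NMN replicate 1 lay above aged replicates 1 and 3. Tcl1b2 was at 1163, 1015 and 1086 FPKM, within the range of the aged libraries (-0.29 ± 0.23, limma adjusted p = 0.675). Tcl1b1 was at 3291, 2335 and 2394 FPKM, also within the aged range (-0.29 ± 0.28, limma adjusted p = 0.734). Its log2 change turned to 0.05 without aged replicate 2, the library that set its sign. Tcl1 was at 2048, 1515 and 1567 FPKM in NMN replicates, and Tcl1b3 at 1038, 878 and 816 FPKM (log2 changes -0.20 ± 0.20 and 0.12 ± 0.22, limma adjusted p = 0.737 and 0.876). The family median was -0.29, beside 0.01 over all genes and -0.45 over the oocyte markers. Without aged replicate 2 the family median was -0.09, with log2 changes of -0.16 for Tcl1b4 and -0.06 for Tcl1b2.

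With NMN set against the young group, limma called 0 of 6 members, and Tcl1b2 came closest. Of all genes 0.0327% were called, 0.0218% as higher and 0.0109% as lower. An unadjusted p under 0.05 was found for 1 of 6 members, Tcl1b2, and for 8.31% of all genes. The NMN values of Tcl1b2, 1163, 1015 and 1086 FPKM, lay above the young values of 906, 654 and 614 FPKM without overlap. Its mean was 1088 ± 73.8 FPKM in NMN and 725 ± 158 FPKM in young oocytes (SD, n = 3 each; log2 change 0.57 ± 0.23 SE, limma adjusted p = 0.565). Tcl1b5 had a log2 change of 0.39 ± 0.39 (limma adjusted p = 0.802). Its groups just overlapped as deposited, at 157 FPKM in NMN replicate 2 and young replicate 1, and just did not after scaling. The remaining log2 changes were 0.42 for Tcl1b4, 0.13 for Tcl1b1, 0.11 for Tcl1 and -0.18 for Tcl1b3 (limma adjusted p from 0.790 to 0.909). The 3 genes called among all tested became 1 with the replicate number as a block, which in this comparison pairs the libraries, and no member was called with that block either. On scaled values the groups did not overlap for 2 of 6 members, both higher in NMN oocytes, and for 16.7% of all genes, 8.52% higher and 8.21% lower. These 3 comparisons share libraries, so their values are not independent of each other.

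The make-up of the family pool does not depend on scaling between libraries. Tcl1b3 made up 12.4, 14.2 and 12.8% of the summed FPKM of the 6 genes in NMN replicates 1 to 3. It made up 13.1, 7.18 and 9.97% in aged and 17.1, 16.2 and 16.5% in young replicates 1 to 3. Every aged and every NMN library thus lay below every young library in the share of Tcl1b3, and aged replicate 2 lay lowest. In FPKM, Tcl1b3 overlapped in both comparisons. How often shares of other gene pools fail to overlap was not computed. Among single genes it was 23.8% in aged against young, 16.7% in NMN against young and 15.9% in NMN against aged oocytes. Tcl1b2 made up 13.9, 16.5 and 17.1% in NMN, 16.02, 15.2 and 15.7% in aged and 12.3, 11.5 and 11.8% in young replicates. For Tcl1b2 the young libraries were the lowest, and aged replicate 2 did not stand apart from the other aged libraries.

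Tcl1b5 made up 2.82, 2.54 and 2.56% of the pool in NMN, 3.92, 8.72 and 6.15% in aged and 2.14, 2.50 and 2.12% in young replicates 1 to 3. Its share was thus highest in the aged libraries, and those of NMN and young libraries lay close together, with NMN replicate 2 just above young replicate 2. Tcl1b4 made up 7.28, 4.29 and 5.39% in NMN, 5.69, 7.68 and 6.32% in aged and 4.64, 4.99 and 4.22% in young replicates, so that aged lay above young and NMN overlapped both. Tcl1 held 24.4 to 24.6% in NMN, 18.1 to 25.8% in aged and 24.0 to 27.1% in young libraries. Tcl1b1 held 37.6 to 39.2% in NMN, 35.5 to 43.1% in aged and 37.7 to 41.4% in young libraries, and aged replicate 2 had both the lowest share of Tcl1 and the highest of Tcl1b1.

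Shares of 1 pool are tied to each other, since a rise of one lowers the rest. The share of Tcl1b3 averaged 10.1 ± 2.97% in aged and 16.6 ± 0.44% in young oocytes, and that of Tcl1b2 15.6 ± 0.39% in aged and 11.9 ± 0.45% in young oocytes (SD, n = 3 each). The shares of Tcl1b4 and Tcl1b5 averaged 6.56 ± 1.02% and 6.26 ± 2.41% in aged against 4.61 ± 0.39% and 2.25 ± 0.21% in young oocytes. For these 4 shares the two-sided exact permutation p was 0.1, the smallest that 3 against 3 libraries allow (0.225 adjusted over 18 tests of shares), and for the shares of Tcl1 and Tcl1b1 it was 0.7 each. In NMN against aged oocytes the share of Tcl1b5 alone had an exact permutation p of 0.1, and in NMN against young oocytes those of Tcl1b2, Tcl1b3 and Tcl1b5 had it. Without aged replicate 2 the share of Tcl1b3 in aged minus young oocytes was -5.06 points in place of -6.52, that of Tcl1b5 2.78 in place of 4.01, and that of Tcl1b2 3.98 in place of 3.78.

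**Figure D3:**
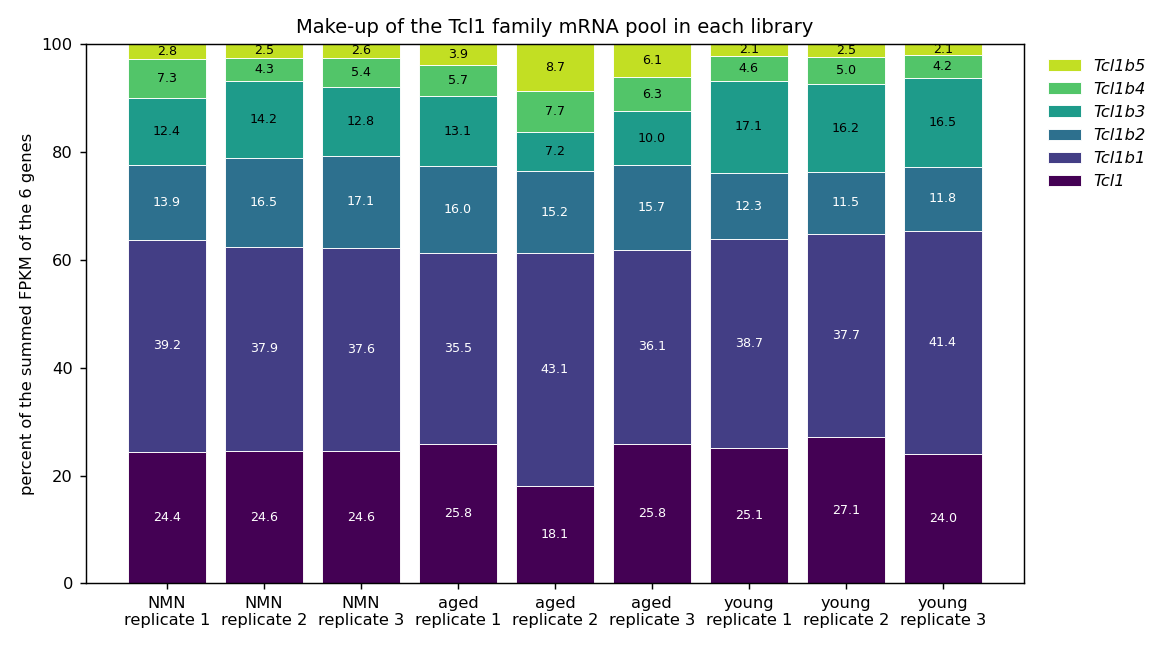
Percent of the summed FPKM of the 6 Tcl1 family genes held by each gene (stacked bars from 0 to 100) in each NMN, aged and young library. Tcl1b3 holds 16.2 to 17.1% in the young libraries and at most 14.2% in the others, and Tcl1b5 is widest in aged replicate 2, at 8.72%.

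Aged replicate 2 exceeded the mean of aged replicates 1 and 3 in each member, by very different factors. The ratio of scaled FPKM was 2.99 for Tcl1b5, 2.17 for Tcl1b4, 2.04 for Tcl1b1, 1.62 for Tcl1b2, 1.18 for Tcl1 and 1.04 for Tcl1b3. The median over the 6 genes was 1.83, and over all tested genes it was 0.979. This is 1 library against 2 of its group and has no test. For Tcl1b5, 3.86% of the tested genes had a higher ratio, for Tcl1b4 8.78%, for Tcl1b1 10.3% and for Tcl1b2 19.3%, while Tcl1 and Tcl1b3 sat nearer the middle, with 37.5% and 46.1%. A ratio over 2 was found for 10.8% of all tested genes. As deposited, aged replicate 2 was the highest of the 9 libraries for every member but Tcl1b3, for which it ranked at place 5. It exceeded the next highest library by 2.87 times for Tcl1b5, 1.66 for Tcl1b1, 1.62 for Tcl1b2, 1.60 for Tcl1b4 and 1.12 for Tcl1.

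**Figure D4:**
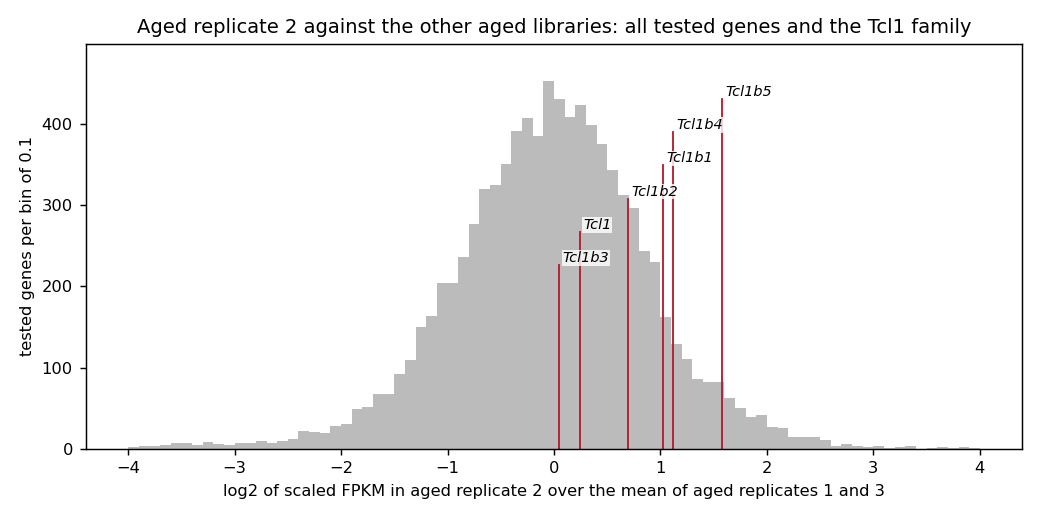
Number of tested genes (vertical axis) by the log2 ratio of scaled FPKM in aged replicate 2 over the mean of aged replicates 1 and 3 (horizontal axis), with the 6 Tcl1 family genes as lines whose heights only set the names apart. The 62 genes beyond -4 or 4 are not drawn, and Tcl1b5 lies farthest to the right of the family, at a ratio of 2.99.

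The genes whose pattern over the 9 libraries was most like that of each member were taken from 2970 named genes with a mean of at least 10 FPKM, by Pearson's r of the scaled log2 values. For Tcl1b5 they were Calm2, a calmodulin gene, Elobl and Lamtor5, with r of 0.991, 0.987 and 0.975, and 0.987, 0.975 and 0.964 over the 8 libraries without aged replicate 2. For Tcl1b4 they were Sec62, Pigp and Ccdc34 (r from 0.984 to 0.986), and for Tcl1b2 Fdx1, Rasa4 and Fam184a (0.946 to 0.964). For Tcl1b1 they were Dut, an enzyme that keeps uracil out of DNA, Bmpr2 and Ube2k (0.978 to 0.988), and for Tcl1 Cks1b, a partner of cyclin-dependent kinases, Znrf2 and Oosp3 (0.974 to 0.987). Tcl1b3 had the least close companions, Psmd8, Hmgn1 and Dnajc3 (0.890 to 0.933). Without aged replicate 2, r fell farther for some other companions, as for Bmpr2 (0.981 to 0.919) and Fam184a (0.946 to 0.905). All were picked by r over the 9 libraries, so r over 8 of these is no separate check. These are the highest of many coefficients over few libraries that share depth and handling, and they are given as a description.

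The mRNAs of the kinases that TCL1 proteins bind were far less abundant than those of the family, and protein was not measured. Akt1 was at 51.8, 27.7 and 28.4 FPKM in NMN, 14.3, 19.0 and 19.9 FPKM in aged and 37.0, 20.4 and 22.9 FPKM in young replicates 1 to 3. All aged libraries lay below all NMN and all young ones for Akt1, narrowly so against young replicate 2. Such a lack of overlap was found for 23.8% of all genes in aged against young and 15.9% in NMN against aged oocytes. Its log2 change was -0.55 ± 0.28 SE in aged against young and 0.92 ± 0.28 in NMN against aged oocytes (limma adjusted p = 0.334 and 0.282). Akt2 averaged 5.91 ± 1.16 FPKM in NMN, 4.81 ± 3.26 in aged and 4.68 ± 1.87 in young oocytes (SD, n = 3 each; limma adjusted p from 0.729 to 0.931 over the 3 comparisons).

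Of 33 listed genes of the AKT pathway 25 were tested, and limma called 0 of them in each of the 3 comparisons. Over all genes 2.12% were called in aged against young, 0.218% in NMN against aged and 0.0327% in NMN against young oocytes. At an unadjusted p under 0.05 there were 0 of 25 in aged against young, where 18.1% of all genes had one, 3 of 25 in NMN against aged, where 11.1% did, and 0 of 25 in NMN against young oocytes, where 8.31% did. Their median log2 changes were -0.16, 0.12 and 0.03. The smallest p in aged against young oocytes were those of Phlpp1, a phosphatase that acts on AKT, at 1.28 ± 0.12 FPKM in aged and 0.71 ± 0.34 in young, and of Mtor, a kinase downstream of AKT, at 5.62 ± 1.33 in aged and 7.73 ± 1.47 in young oocytes (limma adjusted p = 0.295 and 0.308). Foxo3, a transcription factor that AKT holds out of the nucleus, was at 8.35 ± 1.44 FPKM in NMN and 4.34 ± 0.32 FPKM in aged oocytes (limma adjusted p = 0.181), and at 5.87 ± 1.27 FPKM in young oocytes. Foxo1, with Foxo3 the lowest p in NMN against young oocytes, was at 26.0 ± 10.3 and 17.6 ± 9.29 FPKM in these groups (limma adjusted p = 0.757).

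Among the genes beside the cluster on chromosome 12, Bdkrb1 and Vrk1 had the smallest p in aged against young oocytes, without a call. Of 12 listed neighbours 11 were in the table and 7 were tested, and limma called 0 in each comparison, beside 2.12, 0.218 and 0.0327% over all genes. In aged against young oocytes 2 of 7 had an unadjusted p under 0.05, beside 18.1% of all genes, and in the other comparisons 0 of 7 did, beside 11.1% in NMN against aged and 8.31% in NMN against young oocytes. Their median log2 changes were 0.09 in aged against young, 0.01 in NMN against aged and 0.10 in NMN against young oocytes, beside 0.64, -0.29 and 0.26 for the family. Bdkrb1, a bradykinin receptor gene on the Tcl1 side of the cluster, was at 47.4 ± 16.8 FPKM in aged and 92.7 ± 10.3 FPKM in young oocytes, lower in all 3 aged libraries (log2 change -1.03 ± 0.32 SE, limma adjusted p = 0.139). Vrk1, a kinase gene farther along, was at 6.58 ± 1.13 in aged and 4.45 ± 0.29 FPKM in young oocytes (limma adjusted p = 0.214). In NMN oocytes Bdkrb1 was at 65.6 ± 22.0 FPKM and Vrk1 at 6.25 ± 0.82 FPKM, and Atg2b, an autophagy gene, at 2.01 ± 0.33 FPKM in NMN against 1.33 ± 0.41 FPKM in aged oocytes (limma adjusted p from 0.499 to 0.922 for these genes against aged or young oocytes).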

How the data were processed

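Messenger RNA of 9 libraries was measured by Smart-seq2, in which cDNA is primed with oligo(dT) and amplified, per the labels' protocols. The authors deposited 1 table whose name speaks of raw counts, but its values are FPKM: they are fractional and sum to 300369 to 329359 per library. Bowtie2 2.2.5, RSEM and the build mm9 are named in the submitters' processing notes; the annotation and the strand setting are not given in the sources used here. Columns were matched to samples through the sample descriptions, and groups and replicate numbers come from the titles. Symbols came from GENCODE M21 for 22487 of 22526 identifiers.

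Depth was estimated from 2659 genes with 1 transcript of over 1500 nt, whose FPKM times length fell within 0.02 of whole reads for 96.6 to 97.7% of values below 20 reads. Libraries were scaled by a trimmed mean of log ratios, leaving out 30% of genes at each end of the ratios and 5% at each end of the levels. The 9179 genes that reached 1 FPKM in 3 or more libraries were tested with limma 3.58.1 under R 4.3.3 (group means of all 9 libraries, variance trend, robust moderation, pseudocount 1, Benjamini-Hochberg). The steps were tested on simulated data with independent noise for each gene and no deviating library. This cannot show how calls behave beside a library such as aged replicate 2. Libraries of the same number counted as paired if their deviations from the group means correlated above 0.1 in all 3 pairs. The correlations were 0.495, 0.12 and 0.144 in the comparison of NMN with young, which met this, -0.338, -0.267 and 0.313 for aged with young, and -0.37, -0.357 and 0.202 for NMN with aged. The labels tie the numbers to no animal or day.

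All 6 members are named in each comparison. Of the AKT and neighbour lists, Akt1, Akt2, Mtcp1 and members past the test were to be named, or else the 2 with the smallest p, and 3 most alike genes per member. One gene that this rule names is not reported here. The members, lists and rules were chosen with earlier results of these data known. Sequences are from RefSeq, and no coordinates of the deposited build are used. Alternatives are listed in the closing section.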

Additional observations from a re-analysis of the deposited data

How the results depend on the processing

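The count of called members in aged against young oocytes, 1 of 6, was 0 with values as deposited, with a pseudocount of 0.1, with no low-value filter and with the replicate block, 2 with library quality weights, and 0 to 1 without 1 library. In NMN against aged it was 1 with library quality weights and otherwise 0, and in NMN against young it was 0 throughout. The counts over all genes moved more. In aged against young, 195 genes became 24 with no low-value filter, 104 at a minimum of 10 FPKM, 55 with the replicate block, 851 with library quality weights and 26 to 201 without 1 library. In NMN against aged, 20 became 13 with a pseudocount of 0.1, 9 with no filter, 4 at a minimum of 10 FPKM, 139 with weights and 5 to 28 without 1 library. In NMN against young, 3 became 5, 1, 1 and 59 under the same settings, 1 with the replicate block and 1 to 14 without 1 library. The replicate block changed no other call of a member. Without 1 library the family medians ranged over 0.41 to 0.86 in aged against young, -0.52 to -0.09 in NMN against aged and 0.04 to 0.37 in NMN against young. The spread between libraries was 0.29, about as large as the medians of the last 2 comparisons, so these say little about stability. Signs turned without 1 library in 5 cases, none of them called. In NMN against aged, the log2 change of Tcl1b1 was -0.54 to 0.0502 and that of Tcl1b3 -0.0723 to 0.270, turning without aged replicate 2 for Tcl1b1 and aged replicate 3 for Tcl1b3. In NMN against young, that of Tcl1 was -0.0290 to 0.240 and that of Tcl1b1 -0.0228 to 0.250, turning without NMN replicate 1 for both and without young replicate 3 for Tcl1. For the shares, leaving out 1 library was an alternative added after they were seen. Between aged and young, the shares of Tcl1b2, Tcl1b3, Tcl1b4 and Tcl1b5 did not overlap. The sign of these differences therefore could not turn without 1 library, and that it held says nothing about stability. The differences of Tcl1 (-2.18, and 0.392 without aged replicate 2) and Tcl1b1 (-1.03, -3.47 to 0.320 without 1 library) did turn. In NMN against aged, those of Tcl1 (-1.27 to 2.61), Tcl1b1 (-1.34 to 2.45) and Tcl1b2 (-0.474 to 1.12) turned. In NMN against young, that of Tcl1b1 (-1.79 to 0.0452) turned. The cause of these shifts was not tested. The ratio of aged replicate 2 to the other aged libraries had a family median of 1.89 with median-of-ratios scaling. The members lay far above the detection floor of 3 reads in every library.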

Other observations

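Tcl1 is also a gene of lymphocytes, so lymphocyte markers were read in the same libraries. Of 10 listed markers 5 were in the table, and 4 of them summed to 0.0349 to 0.422 FPKM per library, with the highest sum in aged replicate 2. That sum was Cd79a, a part of the B-cell receptor, at 0.422 FPKM in aged replicate 2, against 0.250 FPKM in young replicate 3 and 0 in the other 7 libraries. The fifth, Ms4a1, which encodes the B-cell surface protein CD20, was at 38.2, 53.7 and 40.2 FPKM in NMN, 47.0, 28.9 and 43.0 FPKM in aged and 41.1, 51.5 and 46.4 FPKM in young replicates 1 to 3. Aged replicate 2, the highest library for 5 of 6 Tcl1 family genes, was thus the lowest for Ms4a1 and the highest for Cd79a.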
